A study of Equus caballus with 28 samples.

Results

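The predicted microRNAs (miRNAs) of the horse described here are mature sequences that a prediction program added to the known horse miRNAs in a sequencing study of the embryo and the uterus during early pregnancy. Every entry of the deposited table was taken, and entries with identical counts in every library were counted as 1 profile. This gave 83 distinct profiles, 52 of a single entry and 31 that stand for 102 entries, beside 690 known miRNAs, or 83 of 773 features. They carry the prefix pred-miR and their number in the deposited table, and a profile has the name of its lowest-numbered member. The labels give no target or function for any of them. The paper lists database targets for some of its predicted miRNAs and matches some to miRNAs of other species, which were not used here.

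A miRNA is cut from a hairpin precursor and guides a silencing complex to messenger RNAs that pair with its seed. Prediction programs look for places in the genome where small RNA reads pile up on a stretch that can fold into such a hairpin, so a prediction is a candidate and can also mark a fragment of another small RNA or of a repeat. If the same reads match several places in the genome, each place can be listed under its own number with the same counts. The sequences of the predictions were not used here, so shared counts are the only sign used of entries that may be copies of each other. The authors also held that their predictions were likely too many, with copies standing for few sequences found at several places in the genome.

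The study asked which RNAs differ at the interface of embryo and mother around maternal recognition of pregnancy, the time at which the mare's uterus responds to the embryo. Warmblood mares were sampled 13 days after ovulation, which had been induced with hCG, in a pregnant cycle after insemination with fresh semen from a single stallion and in a cyclic control cycle in which they were left unbred. From the pregnant cycles there were 5 endometrial biopsies, labelled uterus, 5 samples of uterine fluid (UF) recovered with a tampon, 5 embryos without their capsule and 5 samples of yolk sac (YS) fluid, labelled yolk sac. From the cyclic cycles there were 4 endometrial biopsies and 4 UF samples. The number of a sample was taken as that of the mare, and mare 5 had no cyclic library here. The fluids were extracted with another kit than the tissues, so that fluid and kit cannot be told apart in any comparison of a fluid with a tissue. In all of these samples, fewer cells of a type and less RNA per cell cannot be told apart.

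The libraries held 4254 to 587731 counted reads, with 278730 to 587731 in pregnant endometrium, 61604 to 369954 in cyclic endometrium, 78248 to 151402 in pregnant UF, 60747 to 224274 in cyclic UF, 21645 to 43745 in embryos and 4254 to 14218 in YS fluid. A single read in YS fluid therefore stood for 70.3 to 235 CPM, the counts scaled to 1000000 counted reads per library, against 1.70 to 3.59 CPM in pregnant endometrium. The labels were checked against known miRNAs. The group of miR-302, miR-367, miR-371 and miR-372, which marks pluripotent and early embryonic cells, took 1.57 to 6.81% of the reads in embryos and 3.57 to 27.1% in YS fluid, and at most 0.00329% in any endometrial or UF library. The group of miR-143, miR-145, miR-199 and miR-214, known from stroma and smooth muscle, took 1.76 to 5.71% in endometrium, at most 0.817% in UF and at most 0.118% in embryos. Embryo 1 had the lowest share of pluripotency miRNAs among the embryos, YS fluid 2 the highest among the YS fluids, and both are named below where a result rests on them.

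Identical counts were common among the predictions. The 31 sets had 2 to 18 members, and 20 of them had 2. Members of a set often carried neighbouring numbers. In 22 of the 31 sets the numbers were consecutive, and 52 of 153 pairs of neighbouring numbers had the same counts. The largest set, pred-miR-48, held 18 predictions. The sets of pred-miR-72 and pred-miR-87 held 7 each, and those of pred-miR-28 and pred-miR-50 held 5 each. Some profiles were not identical but close: pred-miR-50 and pred-miR-120 had 170 and 172 reads in all, and pred-miR-55 and pred-miR-56 had 570 and 589. When profiles with a Bray-Curtis dissimilarity of at most 0.05 were joined, 80 groups were left, and 75 at a limit of 0.2.

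The predictions were rare compared with known miRNAs, and a few profiles held most of their reads. All 83 profiles together had 34614 reads, against 4242869 for the known miRNAs. A profile had 1 to 16644 reads over the 28 libraries with a median of 53, and the median of the known miRNAs with a read was 134.5. There were 32 profiles with 100 reads or more, 40 with 10 to 99 and 11 with fewer than 10. The most abundant, pred-miR-153, held 48.1% of the predicted reads and ranked 37th among all features, the leading 3 held 65.0% and the leading 10 held 81.7%. A read in every library was found for 8 profiles. For 21 profiles more than 50% of the reads came from a single library.

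The share of counted reads that fell on predictions was lowest in endometrium, higher in UF and highest in the embryonic samples. It was 0.377 to 0.579% in pregnant and 0.463 to 0.531% in cyclic endometrium, and these ranges overlapped. In UF it was 0.682 to 0.895% in pregnant and 0.613 to 1.23% in cyclic cycles, and every UF library lay above every endometrial library. YS fluid had 2.25 to 4.03% and the embryos 2.80, 3.60, 4.35, 4.78 and 17.1%, the last in embryo 1. With the 95% Wilson interval, which covers counting error only since PCR reads are not independent molecules, the share of embryo 1 was 16.6 to 17.6% and that of the smallest library, YS fluid 4, was 2.67 to 3.72%. The means were 0.490% ± 0.0842 (SD, n = 5) in pregnant endometrium, 0.492% ± 0.0325 (n = 4) in cyclic endometrium, 0.810% ± 0.111 (n = 5) in pregnant UF, 0.857% ± 0.266 (n = 4) in cyclic UF, 6.52% ± 5.94 (n = 5) in embryos and 3.28% ± 0.697 (n = 5) in YS fluid. Without the 3 profiles with most reads, pred-miR-153, pred-miR-136 and pred-miR-102, the mean share was 0.169%, 0.141%, 0.240%, 0.458%, 2.38% and 2.06% in the same order. The embryo mean rests on embryo 1, which had 8.44%, while embryos 2 to 5 had 0.732 to 1.04% and lay below every YS fluid, at 1.25 to 2.74%. These shares were given no test, since they are scores over all predictions.

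**Figure D1:**
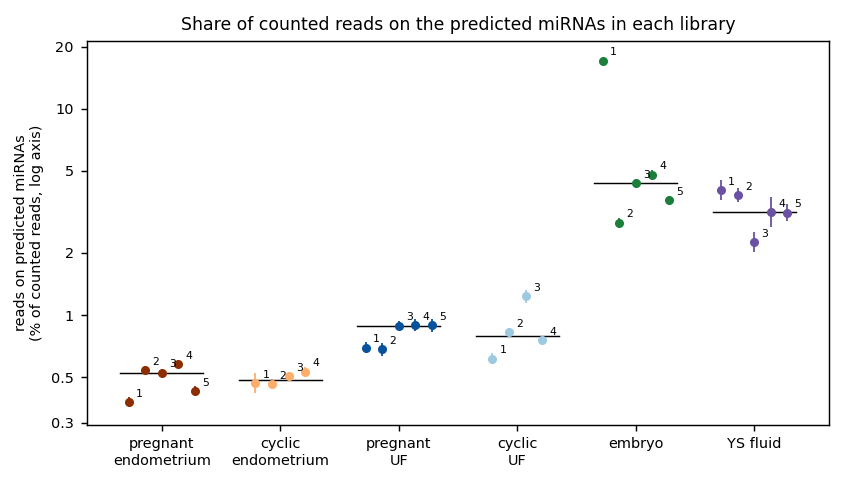
Percent of counted reads on the predicted miRNAs (log axis) in each of the 28 libraries by group; numbers are mares, bars are 95% Wilson intervals for counting error and lines are group medians. Every embryo and YS fluid library lies above every endometrial and UF library, and embryo 1 lies highest at 17.1%.

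The order of the groups by the number of profiles with a read changed when depth was made equal. At full depth an average of 52.6 profiles was seen in pregnant endometrium, 40.5 in cyclic endometrium, 42.6 in pregnant UF, 42.8 in cyclic UF, 37.8 in embryos and 32.0 in YS fluid. At 4254 reads, the size of the smallest library, the expected numbers were 7.71, 6.40, 9.33, 10.3, 18.8 and 24.7 in the same order. At that depth the embryos ranged from 16.8 to 21.4 and the YS fluids from 22.3 to 28.7, and all 18 maternal libraries lay between 5.29 and 12.7. For the 72 profiles with at least 10 reads, levels were also pooled, as a group's reads over its total. The highest pooled CPM was in YS fluid for 25 profiles, the embryo for 18 and cyclic UF for 12. It was in pregnant endometrium for 6, cyclic endometrium for 6 and pregnant UF for 5. A single read in YS fluid stood for 18.9 pooled CPM, and pred-miR-26 was highest there on 1 read.

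**Figure D2:**
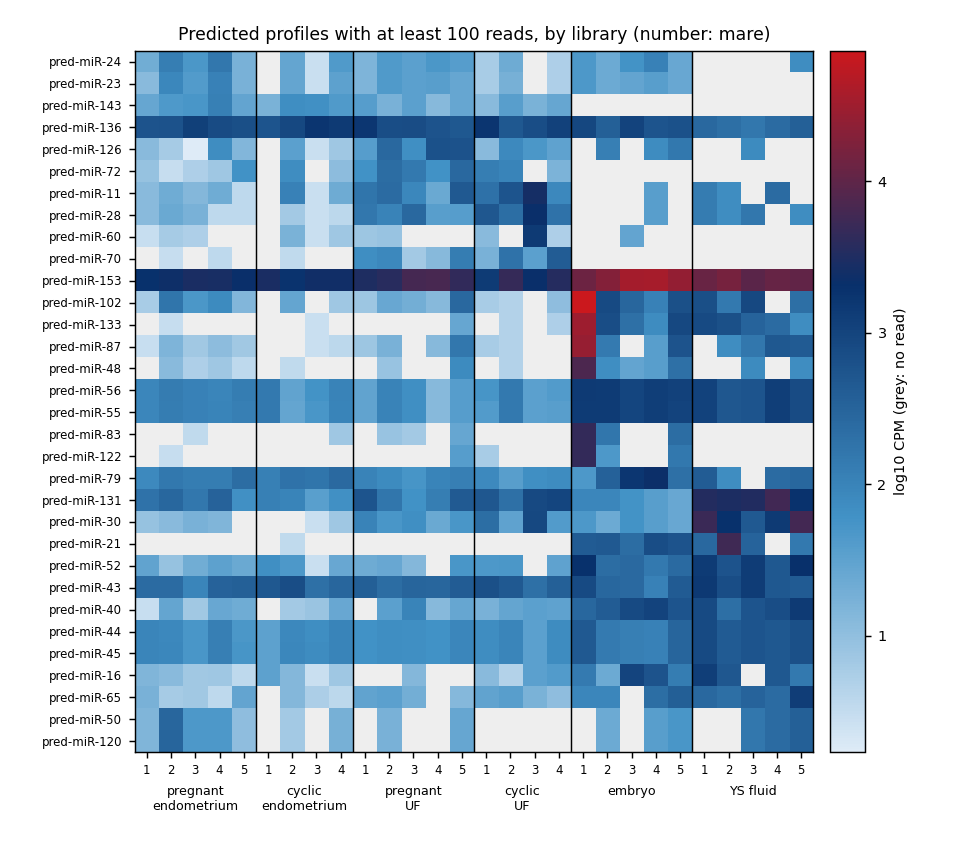
Level of the 32 predicted profiles with at least 100 reads in each library, as log10 CPM, with grey for no read and profiles ordered by the group of their highest mean. pred-miR-153 and pred-miR-136 are present in all 28 libraries, and pred-miR-102, pred-miR-133, pred-miR-87 and pred-miR-48 have their highest level in embryo 1.

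The most abundant profile, pred-miR-153, which includes pred-miR-154, was present in every library and higher in embryos and YS fluid than in the maternal libraries. It had 12797, 19545, 34263, 36764 and 25894 CPM in embryos 1 to 5 and 11964, 15057, 9041, 11283 and 10550 CPM in the YS fluids. In pregnant endometrium it had 1960, 2341, 2857, 2773 and 2123 CPM and in pregnant UF 3170, 3712, 6288, 6491 and 4435 CPM. All embryos lay above all pregnant endometrial and UF libraries, and the ranges of embryo and YS fluid overlapped. In cyclic cycles it had 1791 to 2906 CPM in endometrium and 1382 to 4824 CPM in UF, which overlapped with the pregnant cycles in both compartments.

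The next in abundance, pred-miR-136, with pred-miR-137 as the other member, was lowest in YS fluid. Its mean level was 745 ± 237 CPM in pregnant endometrium, 1122 ± 508 in cyclic endometrium, 990 ± 537 in cyclic UF and 683 ± 257 in embryos, with overlapping ranges, and in pregnant UF its median was 709 CPM, with 1600 CPM in mare 1. In YS fluid it had 269, 213, 156, 235 and 352 CPM, below every other library. pred-miR-43 had overlapping ranges in the maternal groups and embryos, with means of 251 to 414 CPM in the maternal groups, 370 ± 258 CPM in embryos and 881 ± 491 CPM in YS fluid. The near-identical pred-miR-55 and pred-miR-56 were higher in embryos and YS fluid than in the maternal libraries. pred-miR-55 had 918 to 1349 CPM in embryos and 497 to 1175 CPM in YS fluid against 12.2 to 146 CPM in the maternal libraries.

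Features were compared between groups with edgeR's quasi-likelihood test on counts, with TMM normalisation and the Benjamini-Hochberg correction over all known and predicted features tested, and a call asked for an adjusted p (FDR) no higher than 0.05 together with a 2-fold change or more. Fold changes below are on the log2 scale with their standard error. Folds given as at least, and ratios with a counting interval, come from library totals without TMM factors. They are therefore not on the scale of the fitted changes or of the FDR printed beside them. Counts of calls are set beside the percentage of all tested features called in that direction. The comparisons of tissues and fluids share the libraries of a group between them, so their calls are not independent of each other.

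In embryos against pregnant endometrium, 21 of the 49 tested profiles were higher (42.9%) and 14 were lower (28.6%), where 26.4% of all 303 tested features were higher and 46.5% lower. The median change of the predicted profiles was 0.63 (0.65 with features at 0 in a group set to their bound), against -1.24 (-0.40) for all features. The choice of scaling moved these values: with RLE size factors the median of all features was 0.41 higher and 23 predicted profiles were called higher and 10 lower, and with library totals alone it was 1.28 higher, with 25 and 4. The other 34 profiles did not reach 1 CPM in 5 libraries.

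The lower calls were the less firm ones at this depth. Of the 14, 5 had no read in any embryo, where 3 reads over the group would stand for 17.9 CPM, and for 3 of these 5 the bound lay under a 1-fold change. Another 3, pred-miR-8, pred-miR-11 and pred-miR-128, had 1 read in the embryos and a counting interval of the ratio that reached 1, and those of pred-miR-8 (FDR = 0.0814) and pred-miR-11 (FDR = 0.0735) were lost with the mare as block. pred-miR-143 was at least 2.84-fold and pred-miR-5 at least 1.25-fold lower in embryos by this bound. Both were present in all 9 endometrial libraries, pred-miR-143 with 16.2 to 111 CPM and pred-miR-5 with 16.2 to 34.9 CPM, and neither had a read in embryos or YS fluid. They were chosen after their values were seen. pred-miR-136 was called lower, with a log2 change of -1.56 ± 0.39 (FDR = 0.00165), although its mean CPM differed by less than the spread, and the call was lost with library totals alone.

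Of the 21 profiles called higher in embryos, 13 had values that did not overlap with endometrium, a count not made for all features. The clearest was pred-miR-21, with pred-miR-22 as the other member. It had 416, 457, 229, 686 and 575 CPM in the embryos, no read in any pregnant endometrial or pregnant UF library and 1 read in all 8 cyclic libraries, in endometrium 2. In embryos it was at least 287-fold higher than in pregnant endometrium (FDR = 1.27e-07) and at least 88.5-fold higher than in pregnant UF (FDR = 2.21e-05). In YS fluid it had 5682 CPM in mare 2 and 0 to 312 CPM in the others. YS fluid 2, the library with 27.1% of pluripotency miRNAs, stood above every embryo, and the other YS fluids overlapped with the embryos or lay below them. The part of that library's makeup in the value was not tested.

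pred-miR-116 and pred-miR-117 were also higher in embryos than in pregnant endometrium, at a lower level. pred-miR-116 had 46.2, 68.6, 115, 506 and 25.0 CPM in the embryos and no read in the 9 endometrial libraries, and was at least 83.7-fold higher in embryos than in pregnant endometrium (FDR = 7.19e-05). pred-miR-117 had 36.1 to 231 CPM in the 5 embryos, 2.97 to 6.97 CPM in pregnant endometrium and no read in UF, and was at least 20.2-fold higher in embryos than in pregnant UF (FDR = 0.000579). Of the abundant profiles, pred-miR-153 was higher by 2.02 ± 0.33 (FDR = 2.89e-05), pred-miR-55 by 2.08 ± 0.34 (FDR = 3.04e-05) and pred-miR-56 by 2.10 ± 0.34 (FDR = 2.8e-05), in 5 of 5 mares each. Among the calls higher in embryos than in endometrium, that of pred-miR-51 was lost with the mare as block (FDR = 0.0895).

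A group of profiles was high in embryo 1 and much lower in the other 4 embryos. pred-miR-102 had 72488 CPM in embryo 1 and 800, 287, 108 and 650 CPM in embryos 2 to 5. pred-miR-133 had 31416 CPM in embryo 1 and 686, 201, 72.2 and 851 CPM in the others. The set of 7 predictions under pred-miR-87 had 27674 CPM in embryo 1 and 137, 0, 36.1 and 575 CPM in the others. Embryo 1 alone held these levels, and among the other embryos number 2 or number 5 was highest. The set of 18 under pred-miR-48 had 7161 CPM in embryo 1 against 68.6, 28.7, 36.1 and 200 CPM. pred-miR-83 and pred-miR-122, named after their values were seen, each had 4481 CPM in embryo 1 and at most 225 CPM in any other embryo.

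In all, 8 of the 31 profiles with at least 10 embryo reads had more than 50% of their embryo CPM in embryo 1, against 3 of 151 known miRNAs. These 8 were pred-miR-48, pred-miR-52, pred-miR-64, pred-miR-83, pred-miR-87, pred-miR-102, pred-miR-122 and pred-miR-133. Embryo 1 was also the shallowest embryo library, with 21645 reads, and had 1.57% of pluripotency miRNAs against 2.97 to 6.81% in the other embryos, while epithelial miRNAs took 12.3% of its reads, within the 12.2 to 13.8% of the embryos. The part of these differences in the result was not tested. Among the pregnant UF libraries, 6 of these profiles, singled out after their values were seen, were highest in UF 5, with 268 CPM for pred-miR-102, 153 CPM for pred-miR-87, 76.7 CPM for pred-miR-48, 38.3 CPM for pred-miR-122 and 25.6 CPM for pred-miR-133 and pred-miR-83. UF of mare 1 had 7.48 CPM of pred-miR-102 and pred-miR-87, 1 read each, and no read of the other 4.

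**Figure D3:**
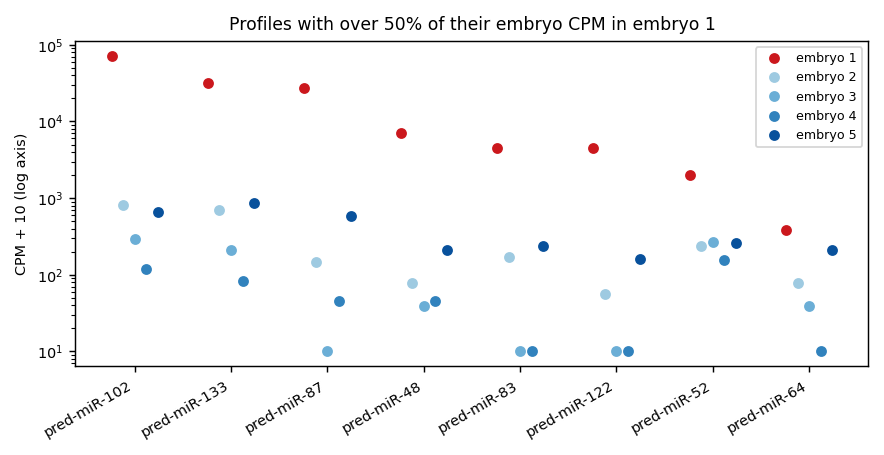
CPM + 10 on a log axis in embryos 1 to 5 for the 8 predicted profiles with more than 50% of their embryo CPM in embryo 1. For pred-miR-102 embryo 1 lies at 72488 CPM and the other embryos at 108 to 800 CPM, and for pred-miR-64 the gap to embryo 5 is small.

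Their calls against endometrium rested on embryo 1 to different degrees. pred-miR-133 was higher in embryos by a ratio of 8217 (95% counting interval 1470 to 324978, since endometrium had 1 read), with a fitted log2 change of 11.12 ± 1.76 (FDR = 1.97e-05), and by 7.38 ± 0.84 (FDR = 7.06e-07) without embryo 1. pred-miR-102 was higher by 6.47 ± 1.53 (FDR = 0.00107) with embryo 1, and by 1.55 ± 0.70 (FDR = 0.0608) without it, which is no longer called. pred-miR-87 changed from 7.90 ± 1.63 (FDR = 0.000299) to 3.09 ± 0.80 (FDR = 0.00273) and pred-miR-48 from 6.49 ± 1.35 (FDR = 0.000321) to 2.53 ± 0.74 (FDR = 0.00626). Without embryo 1, 30 of the 35 calls against endometrium remained, and those of pred-miR-8, pred-miR-11, pred-miR-24, pred-miR-72 and pred-miR-102 were lost. DESeq2 with all embryos gave no adjusted p for pred-miR-48, pred-miR-87, pred-miR-102 and pred-miR-133 against endometrium, pregnant UF or YS fluid, so that these calls rest on edgeR alone where embryo 1 is included.

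Against pregnant UF, 20 of 45 tested profiles were higher in embryos (44.4%) and 11 lower (24.4%), where 30.7% of all 254 features were higher and 36.2% lower. The median change was 1.06, and -0.15 for all features. With RLE size factors the median of all features was 0.46 higher and the calls were 23 and 10, and with library totals alone it was 1.31 higher and they were 25 and 7. pred-miR-133 was higher by 8.85 ± 1.84 (FDR = 0.000805) and by 5.14 ± 0.93 (FDR = 0.000164) without embryo 1, while the calls of pred-miR-48, pred-miR-83, pred-miR-87 and pred-miR-102 were lost without that library. The higher call of pred-miR-79 was lost with the mare as block (FDR = 0.109). Among those lower in embryos, the set of 7 under pred-miR-72 had 59.8 to 268 CPM in pregnant UF and no read in embryos, which is at least 8.23-fold lower (FDR = 0.000158). pred-miR-28 had 36.5 to 271 CPM in pregnant UF and 1 read in the embryos, in embryo 4. For pred-miR-28 the UF was higher by a ratio of 23.8 (95% counting interval 4.15 to 952, FDR = 0.000474).

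YS fluid, the fluid inside the embryo's yolk sac, had its own leading profiles. Against pregnant endometrium, 19 of 45 tested profiles were higher (42.2%) and 6 lower (13.3%), where 22.0% of all 286 features were higher and 34.3% lower. The median change was 1.29 (1.75 with features at 0 in a group at their bound), against -0.48 (-0.11) for all features. With RLE size factors the median of all features was 0.32 higher and the calls were 21 and 4, and with library totals alone it was 1.39 higher and they were 26 and 1. In YS fluid 3 reads over the group stood for 56.8 CPM. For 4 of the 6 profiles called lower, pred-miR-5, pred-miR-23, pred-miR-57 and pred-miR-143, there was no read in YS fluid and the bound lay under a 1-fold change. On library totals a lower level was therefore not detectable at this depth by counting alone. Since those totals moved the median of all features by 1.39, the bound is not on the TMM scale of the calls. Of the other 2, pred-miR-136 was lower by 3.09 ± 0.48 (FDR = 4.18e-05), a log2 change of -3.09, in 5 of 5 mares, and pred-miR-24 had 1 read in YS fluid and a ratio of 3.60 with a 95% counting interval of 0.635 to 143 that reached 1. With the mare as block, the lower calls of pred-miR-5 (FDR = 0.0609), pred-miR-24 (FDR = 0.0535) and pred-miR-57 (FDR = 0.0969) were lost. So were the higher calls of pred-miR-44 (FDR = 0.088), pred-miR-45 (FDR = 0.094), pred-miR-55 (FDR = 0.0927) and pred-miR-56 (FDR = 0.0978). With all libraries thinned to 4254 reads, the change of pred-miR-136 was -0.15 (FDR = 0.928).

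pred-miR-64 and pred-miR-81 were among the largest increases in YS fluid. pred-miR-64 had 2823, 568, 312, 2351 and 422 CPM in the YS fluids, 0 to 370 CPM in the embryos and 0 to 8.75 CPM in pregnant endometrium, and was higher than in endometrium by 6.76 ± 0.84 (FDR = 3.65e-06). pred-miR-81 had 1748, 2131, 77.9, 705 and 492 CPM in the YS fluids and no read in any embryo. Its level in YS fluid exceeded that in endometrium by a ratio of 624 (95% counting interval 203 to 3123, FDR = 8.46e-06), and against embryos it was at least 57.2-fold higher (FDR = 0.00137). In UF, pred-miR-81 was seen in pregnant UF 4 and in cyclic UF 1, 3 and 4, with 11.6 to 48.6 CPM. pred-miR-133 was also higher in YS fluid than in endometrium, with 807, 639, 312, 235 and 70.3 CPM in YS fluid and 1 read in endometrium, a ratio of 729 (95% counting interval 117 to 30128.6, FDR = 3.47e-06).

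pred-miR-30 and pred-miR-131 separated YS fluid from the embryo. pred-miR-131, with pred-miR-132 as the other member, had 3361, 2983, 3196, 5877 and 1899 CPM in the YS fluids and 92.4, 91.4, 57.3, 36.1 and 25.0 CPM in the embryos of the same mares. pred-miR-30 had 5108, 1989, 468, 1410 and 5978 CPM in the YS fluids and 22.9 to 57.3 CPM in the embryos. Neither overlapped between the groups, and the log2 changes of the embryo against YS fluid were -5.12 ± 0.57 (FDR = 2.94e-05) for pred-miR-131 and -5.58 ± 0.75 (FDR = 0.000114) for pred-miR-30.

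In the whole comparison of embryos with YS fluid, 8 of 37 tested profiles were higher in embryos (21.6%) and 8 lower (21.6%), where 19.8% of all 217 features were higher and 12.9% lower. The median change was 0.33, and 0.14 for all features. With RLE size factors 7 were higher and 8 lower, and with library totals alone 5 and 10, the median of all features being 0.16 and 0.47 lower. Of the 8 higher in embryos, 5 were not called without embryo 1. These were pred-miR-48, pred-miR-56, pred-miR-87, pred-miR-102 and pred-miR-133, with log2 changes of 1.49, 1.26, 0.23, 0.95 and 0.73 and FDR of 0.215, 0.0752, 0.858, 0.375 and 0.487. With the mare as block, the calls of pred-miR-56 (FDR = 0.0953) and pred-miR-87 (FDR = 0.158) were also lost, and so was the lower call of pred-miR-28 (FDR = 0.0732). pred-miR-153 was higher by 1.73 ± 0.36 (FDR = 0.00226) and by 1.91 ± 0.38 (FDR = 0.00129) without embryo 1. pred-miR-136 was higher in embryos by 1.97 ± 0.52 (FDR = 0.00942), with no overlap, and was not called with library totals alone (FDR = 0.0515) or when thinned to 4254 reads (FDR = 0.079).

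Against pregnant UF, 20 of 42 tested profiles were higher in YS fluid (47.6%) and 10 lower (23.8%), where 26.9% of all features tested were higher and 32.4% lower. The median change was 1.42, and -0.41 for all features (-0.16 with features at 0 in a group at their bound). With RLE size factors the median of all features was 0.52 higher and the calls were 22 and 8, and with library totals alone it was 1.54 higher and they were 26 and 3. pred-miR-64 was again among the highest, with 1 read in all pregnant UF and a ratio of 523 (95% counting interval 89.6 to 21089.7, FDR = 1.78e-05). pred-miR-51 had 672, 213, 156, 1410 and 844 CPM in YS fluid and 1 read in pregnant UF, a ratio of 299 (95% counting interval 49.4 to 12229.8, FDR = 6.2e-05). pred-miR-115 had 2415 CPM in YS fluid 2 and 70.3 to 269 CPM in the others, and was higher by a ratio of 208 (95% counting interval 53.9 to 1781, FDR = 0.00148). Its fitted change of 5.55 ± 1.24 became 3.11 ± 1.03 (FDR = 0.0198) without YS fluid 2. Of the 10 lower, 6 had no read in YS fluid and for 5 of these the bound lay under a 1-fold change, while pred-miR-72 was at least 2.59-fold lower (FDR = 0.00136). pred-miR-136 was lower by 3.27 ± 0.50, a log2 change of -3.27 (FDR = 5.8e-05), and thinned to 4254 reads it was -2.40 (FDR = 0.0768). With the mare as block, the lower calls of pred-miR-5 (FDR = 0.0712), pred-miR-23 (FDR = 0.0533), pred-miR-27 (FDR = 0.09) and pred-miR-143 (FDR = 0.0739) were lost. So were the higher calls of the near-identical pred-miR-50 and pred-miR-120 (FDR = 0.0999 each).

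UF was compared with the endometrium of the same cycle, in pregnant and in cyclic libraries separately, and these comparisons share no library. In pregnant cycles 9 of 51 tested profiles were higher in UF (17.6%) and 7 lower (13.7%), where 11.7% of all 299 features were higher and 25.4% lower. In cyclic cycles 10 of 47 were higher (21.3%) and 1 lower (2.13%), where 10.4% of all 289 features were higher and 21.1% lower. The median changes were 0.10 and 0.04, against -0.34 and -0.27 for all features. RLE size factors and library totals alone moved the median of all features by 0.11 and 0.13 in the pregnant comparison, which then had 10 higher and 4 lower under either scaling, and by 0.12 and 0.09 in the cyclic one.

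A group of profiles was higher in UF than in endometrium in both cycles. Of the 9 calls in pregnant and the 10 in cyclic cycles, 6 were common, pred-miR-2, pred-miR-11, pred-miR-28, pred-miR-30, pred-miR-70 and pred-miR-91, or 66.7% and 60.0% of the calls. With the mare as block, pred-miR-2 was no longer called in pregnant cycles, at 2.14 ± 0.87 (FDR = 0.06). None was lower in both. Among the 42 profiles tested in both, 34 had the same sign. These overlaps were not counted for all features, so they do not set the predicted profiles apart.

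The set of 5 under pred-miR-28 was the clearest of these. It had 157, 101, 271, 36.5 and 38.3 CPM in pregnant UF and 3.49 to 23.8 CPM in pregnant endometrium, and 2173 CPM in cyclic UF 3 and 186 to 497 CPM in the other cyclic UF against 0 to 6.67 CPM in cyclic endometrium. The groups did not overlap in either cycle, and the log2 changes were 3.11 ± 0.63 (FDR = 0.00104) and 7.59 ± 1.08 (FDR = 5.29e-05). Cyclic UF 3 held the highest value, and without it the cyclic change was 6.08 ± 0.67 (FDR = 1.44e-05).

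pred-miR-70 had few reads outside UF. It had 67.3, 84.4, 6.60, 12.2 and 128 CPM in pregnant UF and 17.3, 183, 32.9 and 408 CPM in cyclic UF, with 2 reads in pregnant endometrium, 1 in cyclic endometrium and none in embryos or YS fluid. UF exceeded endometrium by a ratio of 50.3 (95% counting interval 12.8 to 434) in pregnant and 193 (34.1 to 7703) in cyclic cycles, with FDR of 0.000334 and 0.000221. pred-miR-30 had 24.3 to 105 CPM in pregnant UF and 31.2 to 856 CPM in cyclic UF, above endometrium in every mare, with FDR of 0.00534 and 0.000795. Its cyclic change of 6.45 ± 1.28 was 4.73 ± 0.92 (FDR = 0.00073) without cyclic UF 3.

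The sets of 4 under pred-miR-11 and of 7 under pred-miR-72 were among the highest in pregnant UF over endometrium. pred-miR-11 had 172, 236, 85.9, 24.3 and 460 CPM in pregnant UF and 3.49 to 21.5 CPM in pregnant endometrium, a log2 change of 3.53 ± 0.62 (FDR = 0.000341). pred-miR-72 had 59.8 to 268 CPM in pregnant UF against 2.97 to 59.3 CPM, where only endometrium 5 came near the UF range, and changed by 3.14 ± 0.68 (FDR = 0.00156). In cyclic cycles pred-miR-72 was not called and had 121, 98.1, 0 and 15.5 CPM in UF and 0 to 70.0 CPM in endometrium.

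In the other direction, pred-miR-79, with pred-miR-80 as the other member, was the 1 profile lower in cyclic UF. It had 80.9, 35.7, 65.8 and 72.3 CPM in UF and 114, 183, 168 and 253 CPM in endometrium, with a log2 change of -1.59 ± 0.53 (FDR = 0.0288). The groups did not overlap, but the call was lost when any of 6 of the 8 libraries was left out. In the pregnant comparison the 7 lower calls included pred-miR-50 and pred-miR-120, whose levels rested on pregnant endometrium 2, and pred-miR-55 and pred-miR-56. The calls of these 4 were lost without endometrium 2, and also without UF 1, UF 3 or UF 4. With the mare as block, the lower calls of pred-miR-113 (FDR = 0.122) and pred-miR-135 (FDR = 0.0533) were lost.

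**Figure D4:**
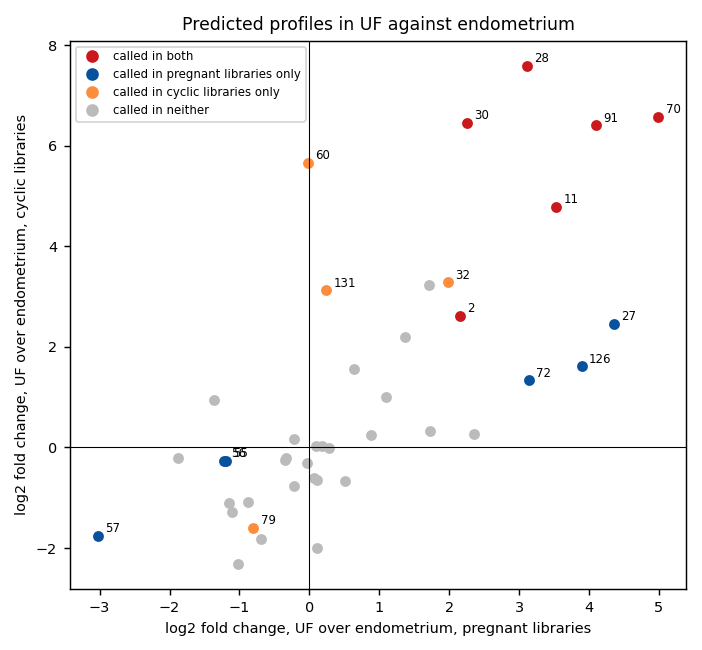
Log2 fold change of UF over endometrium in pregnant (x axis) and cyclic (y axis) libraries for the 42 predicted profiles tested in both, with the numbers of those called. The 6 profiles called in both lie in the upper right, and pred-miR-131 and pred-miR-60 lie near 0 on the pregnant axis.

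In pregnant against cyclic endometrium, with the mare as block, 6 of 56 tested profiles were higher in pregnancy (10.7%) and none lower, where 2.17% of all 323 features were higher and 0.0% lower. These 6 calls stood beside 1 call among 267 known miRNAs. The median change was 0.38 for predicted profiles (0.35 with features at 0 in a group at their bound) and 0.04 for all features. The 6 were pred-miR-23, pred-miR-24, pred-miR-50, pred-miR-102, pred-miR-120 and pred-miR-131, and in all 4 mares with both cycles the pregnant value was above the cyclic one. With library totals alone the median of all features was 0.23 lower, a shift of -0.23, and 5 were called. Without the block edgeR called 0 of 56 profiles, with 13 at an unadjusted p under 0.05 and a lowest FDR of 0.305, and DESeq2 with the block called 5.

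pred-miR-131 had the highest level of the 6. It had 187, 277, 153, 334 and 62.7 CPM in pregnant endometrium of mares 1 to 5 and 114, 100, 35.1 and 61.3 CPM in cyclic endometrium of mares 1 to 4. The groups overlapped only through mare 5, which had no cyclic sample, and the log2 change was 1.98 ± 0.39 (FDR = 0.000768). Of the alternatives tried for this call, only leaving out the block ended it.

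pred-miR-50 and pred-miR-120, near-identical and so hardly separate observations, rose most. pred-miR-50 had 14.6, 294, 45.9, 46.6 and 10.5 CPM in pregnant endometrium and 0, 6.67, 0 and 18.0 CPM in cyclic endometrium, 7 reads in all, with a log2 change of 3.98 ± 0.74 (FDR = 0.000366). Mare 2 stood above the other mares in pregnancy, and without it the change was 2.72 ± 0.74 (FDR = 0.0112). pred-miR-102, the profile that reached 72488 CPM in embryo 1, had 5.83, 167, 49.3, 75.3 and 13.9 CPM in pregnant and 0, 26.7, 0 and 7.22 CPM in cyclic endometrium, a change of 3.56 ± 0.65 (FDR = 0.000366). Mare 1, whose embryo held that level, had the lowest pregnant endometrial value.

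pred-miR-23 and pred-miR-24 had similar values throughout. pred-miR-24 had 20.4, 119, 49.3, 158 and 17.4 CPM in pregnant and 0, 26.7, 2.70 and 43.3 CPM in cyclic endometrium, with a log2 change of 2.59 ± 0.56 (FDR = 0.00222). pred-miR-23 changed by 2.31 ± 0.58 (FDR = 0.0138), and its call was lost without mare 3 (FDR = 0.21). The library of cyclic endometrium 1 had 61604 reads, so a single read stood for 16.2 CPM there and its values of 0 are weak. Stromal miRNAs took 1.76 to 5.71% in pregnant and 2.44 to 3.86% in cyclic endometrium, erythroid miRNAs 0.268 to 1.13% and 0.646 to 1.35%, and leukocyte miRNAs 0.283 to 0.348% and 0.197 to 0.328%. Their part in these results was not tested.

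In pregnant against cyclic UF, 1 of 46 tested profiles was higher (2.17%) and 4 were lower (8.70%), where 1.13% of all 266 features were higher and 1.88% lower. Known miRNAs gave 2 higher and 1 lower call among 220. The median change was -0.03 for predicted profiles and -0.03 for all features. The calls depended on the fit, since edgeR without the block called 0 of 46 profiles, with 9 at an unadjusted p under 0.05 and a lowest FDR of 0.427, and DESeq2 with the block called pred-miR-28 alone.

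pred-miR-126, with pred-miR-134 as the other member, was higher in pregnancy in 4 of 4 mares. It had 37.4, 270, 66.0, 608 and 588 CPM in pregnant UF and 11.6, 80.3, 49.4 and 31.0 CPM in cyclic UF, with a log2 change of 2.34 ± 0.58 (FDR = 0.00409). Without mare 4 the change was 1.44 ± 0.73 (FDR = 0.82). In the endometrium it had 1.70 to 71.8 CPM in pregnant and 0 to 33.4 CPM in cyclic cycles.

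pred-miR-28 and pred-miR-11 were lower in pregnant UF in 4 of 4 mares. For pred-miR-28 the pregnant values of mares 1 to 4 were 157, 101, 271 and 36.5 CPM and the cyclic ones 186 to 497 CPM in mares 1, 2 and 4 and 2173 CPM in mare 3, a log2 change of -1.97 ± 0.46 (FDR = 0.00184). Without mare 3 it was -1.47 ± 0.43 (FDR = 0.0272), so the call did not rest on that mare alone. For pred-miR-11 the cyclic value of mare 3, 2601 CPM, stood above the 82.7 to 540 CPM of the other mares, and the change of -1.80 ± 0.50 (FDR = 0.0145) became -0.76 ± 0.43 (FDR = 0.523) without it. Without mare 4 it was -1.82 ± 0.57 (FDR = 0.0828), which is not called either.

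The pair of predictions under pred-miR-60 shows a call made by 1 library. It had 85 of its 105 reads in cyclic UF 3, where it reached 1399 CPM, and 0 to 11.6 CPM in the other cyclic and 0 to 8.44 CPM in the pregnant UF libraries. In 3 of 4 mares UF had the lower value in pregnancy. The ratio of cyclic to pregnant UF was 38.1 (95% counting interval 10.2 to 320, FDR = 0.000204), and without mare 3 the log2 change was 0.19 ± 2.09 (FDR = 1.0). The call of pred-miR-60 in cyclic UF over cyclic endometrium, 5.65 ± 1.68 (FDR = 0.0144), was likewise lost without cyclic UF 3, at -0.50 ± 1.03 (FDR = 0.761), and with the mare as block, at 2.38 ± 1.15 (FDR = 0.112). Cyclic UF 3 held more than 50% of the group's CPM for 7 of 32 profiles with at least 10 reads, pred-miR-11, pred-miR-25, pred-miR-28, pred-miR-30, pred-miR-60, pred-miR-82 and pred-miR-123, against 4 of 173 known miRNAs. It was also the smallest cyclic UF library, with 60747 reads, and had the lowest epithelial share in UF, 9.56% against 12.6 to 16.8%. The part of these differences in the result was not tested.

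**Figure D5:**
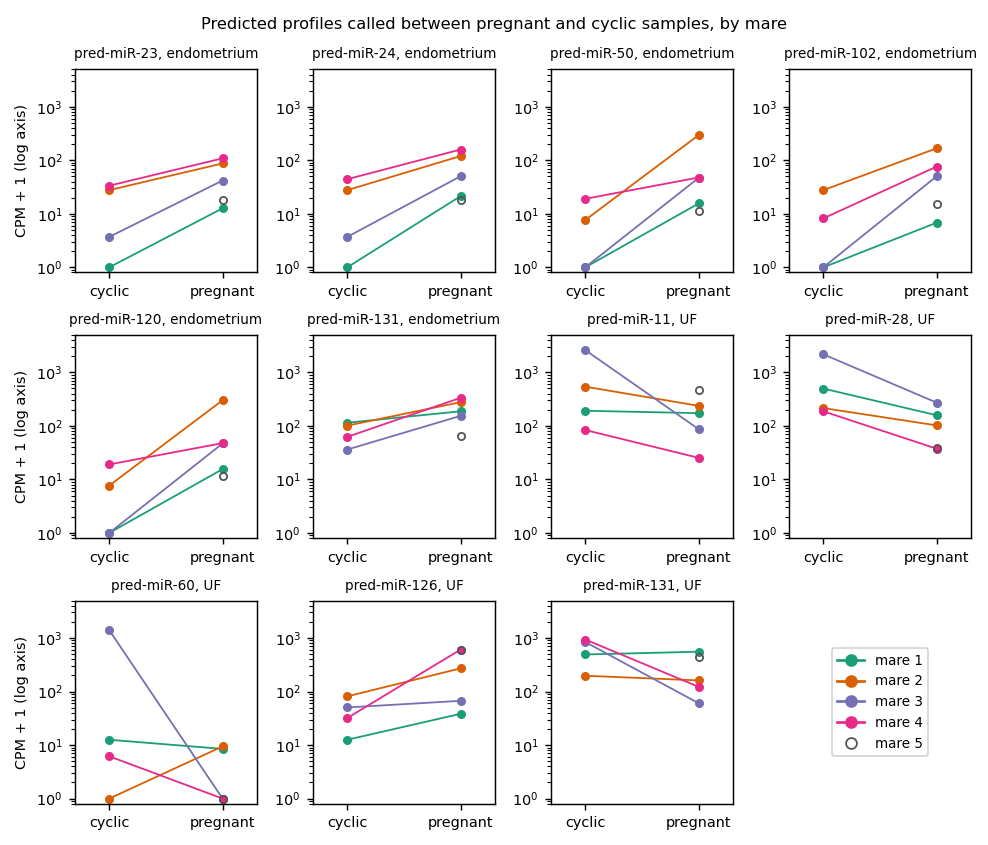
CPM + 1 on a log axis in cyclic and pregnant samples, joined by mare, for the 11 calls between pregnant and cyclic cycles; mare 5 has a pregnant sample only. All lines rise in the 6 endometrial panels, and in the UF panel of pred-miR-60 the fall from 1399 CPM belongs to mare 3.

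pred-miR-131 was called in both compartments with opposite signs. In UF it had 553, 160, 59.4, 122 and 447 CPM in pregnant and 491, 196, 840 and 935 CPM in cyclic cycles, lower in 3 of 4 mares and higher in mare 1, with a log2 change of -1.52 ± 0.47 (FDR = 0.0439). Without mare 3 it was -0.78 ± 0.41 (FDR = 0.48) and without mare 4 it was -1.01 ± 0.58 (FDR = 0.995).

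The difference between the compartments was tested itself, as the interaction of cycle and compartment over the 18 maternal libraries. None of 69 tested profiles was more raised by pregnancy in UF than in endometrium and 2 were less so (2.90%), pred-miR-131 and pred-miR-28, where 0.0% and 0.571% of all 350 features were called. These 2 were the only calls among all features. The median interaction was -0.32 for predicted profiles and -0.00374 for all features. For pred-miR-131 the difference of the log2 changes was -3.36 ± 0.68 (FDR = 0.00221), and -2.48 ± 0.61 (FDR = 0.0176) without mare 3. For pred-miR-28 it was -3.89 ± 0.88 (FDR = 0.00788), and -3.01 ± 1.07 (FDR = 0.363) without mare 3. Without the block edgeR called 0 of 69, with 6 at an unadjusted p under 0.05 and a lowest FDR of 0.582, while DESeq2 with the block called both.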

How the data were processed

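Small RNA libraries were made from 100 ng of total RNA with 18 PCR cycles and sequenced as single reads of 35 bases. The authors trimmed adapters with cutadapt 1.11, removed reads shorter than 17 bases, with a quality under 20 or with ambiguous bases, and used miRPro with miRBase and the horse genome EquCab2.0 for counting and prediction. The deposited values are whole, unnormalised read counts per known and predicted miRNA; how reads with several genome matches were counted is not given in the sources used here. The table of predicted precursors held the same counts in 154 of 154 entries and was not used further. All columns were matched to a sample by name, and 0 were left unmapped. CPM were computed from the sum of known and distinct predicted counts.

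Features were tested if they reached 1 CPM in a number of libraries equal to the size of the smaller group, with edgeR 4.0.16 in R 4.3.3 (glmQLFit, glmQLFTest, two-sided, TMM). The code was run on simulated counts with a single dispersion, no difference between mares and no outlying library. That run cannot tell how the test behaves with outlying libraries such as embryo 1. The 2 comparisons of pregnant with cyclic samples and the interaction had the mare as block, since the methods state that the same mares were used. The deviations of same-numbered samples had a mean correlation of 0.192 (-0.0842 to 0.285) in endometrium and 0.210 (-0.0118 to 0.379) in UF. The means of other pairs, -0.0492 and -0.0532, largely follow from these values and are no separate reference. These weak correlations do not show that same-numbered samples came from the same mare. The labels do not name the mare, and without that pairing p-values measure only the spread between these samples. The other 7 comparisons had no block, since the paper states paired analysis only for pregnant against cyclic samples. It also states that embryonic and maternal samples came from the same cycles, so the main calls of these comparisons ignore a pairing. Calls lost with the block are given above. Folds against a group without reads are bounds from 3 reads over the group's total CPM, and those against 1 to 3 reads are ratios of pooled CPM with an exact 95% counting interval. Neither uses TMM factors. Replacing TMM by library totals raised the median log2 change of all features by 1.28 for embryo against pregnant endometrium. For YS fluid against pregnant UF it rose by 1.54. Bounds and ratios can therefore differ from the fitted changes in either direction.

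Profiles were named if called between pregnant and cyclic samples or in the interaction, if among the 3 largest changes per direction of a comparison of tissues and fluids with a mean of at least 100 CPM in the higher group and no overlap between groups, if among the 10 with most reads, or if among the 5 largest sets; others appear in lists of calls or were singled out after their values were seen. The members and lists were chosen with earlier results of these data known. Alternatives were RLE size factors, library totals alone (chosen after the data were seen), DESeq2 1.42.0, no low-count filter, filterByExpr, all 154 entries, joined near-identical profiles, the fit with or without the block, thinning to the smallest library of a comparison and leaving out each replicate. Tables and figures were made with Python 3.11.15.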

Additional observations from a re-analysis of the deposited data

Results flagged for a closer look

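Among 65 groups of 4 or 5 libraries tested with Dixon's criterion for a sample that lies far from the rest, 11 stood out. A rate of 1 in 20 would flag 3.25 groups, but it cannot be applied here. The groups were not independent, since some profiles were near-identical. Some profiles were also named through reads of the library then flagged: pred-miR-102 had 1569 of its 1819 reads in embryo 1. Embryo 1 accounted for 5 of the 11. Its share of reads on predicted miRNAs was 17.1%, against 2.80 to 4.78% in the other embryos. Its level of pred-miR-102 was 72488 CPM against 108 to 800, that of pred-miR-133 was 31416 CPM against 72.2 to 851, that of pred-miR-87 was 27674 CPM against 0 to 575 and that of pred-miR-48 was 7161 CPM against 28.7 to 200.

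Cyclic UF 3 lay far above the other cyclic UF libraries for pred-miR-28, with 2173 CPM against 186 to 497, and for pred-miR-60, with 1399 CPM against 0 to 11.6. Pregnant endometrium 2 did so for the near-identical pred-miR-50, with 294 CPM against 10.5 to 46.6, and pred-miR-120, with 300.4 CPM against 10.5 to 46.6. YS fluid 2 had 5682 CPM of pred-miR-21 against 0 to 312 in the other YS fluids. Pregnant UF 1 had 1600 CPM of pred-miR-136 and the other pregnant UF libraries at most 713.

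The effect of pregnancy differed between UF and endometrium for 2 profiles by the test of the interaction. The difference of the log2 changes was -3.89 for pred-miR-28 and -3.36 for pred-miR-131.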

How the results depend on the processing

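The block decided the comparisons of cycles: without the replicate block 0 profiles were called in endometrium, 0 in UF and 0 in the interaction, against 6, 5 and 2. With the replicate block added, the other comparisons kept within 1.5 times their count. For embryos, 32 of 35 calls were kept against endometrium, 30 of 31 against UF and 13 of 16 against YS fluid. For YS fluid, 18 of 25 were kept against pregnant endometrium and 24 of 30 against pregnant UF. For UF against endometrium, 13 of 16 were kept in pregnant and 10 of 11 in cyclic cycles. With filterByExpr at a minimum count of 10, which tests fewer features, the calls were 2 and 0 for pregnant against cyclic endometrium and UF, 11 for embryo against pregnant endometrium, 5 and 4 for UF against endometrium in pregnant and cyclic cycles, 15 for YS fluid against pregnant endometrium, 8 for embryo against UF, 4 for embryo against YS fluid, 9 for YS fluid against UF and 0 for the interaction. With every entry of the table counted, copies included, they were 11, 13, 73, 33, 21, 37, 74, 38, 51 and 7 in the same order, of which the 37 lay within 1.5 times. Thinned to the smallest library of each comparison, the 7 comparisons of tissues and fluids had 12, 8, 5, 6, 17, 7 and 6 calls and the interaction 0. That library held 4254 reads where YS fluid took part and 21645 for embryos against endometrium or UF. It held 78248 for pregnant UF against endometrium, and 60747 for cyclic UF against endometrium and for the interaction. Without the filter, cyclic UF against endometrium had 17 and the interaction 4. DESeq2 gave 1 call in pregnant against cyclic UF. Library totals alone, chosen after the data were seen, and RLE size factors kept every total of calls within 1.5 times. By direction, library totals alone lowered the lower calls from 14 to 4 in embryo against endometrium, from 6 to 1 in YS fluid against endometrium and from 10 to 3 in YS fluid against UF.

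With each library left out, the calls were 5 to 6 in endometrium and 2 to 6 in UF, where the 2 arose without mare 3 and without mare 4, and 1 to 5 in the interaction, with 1 without mare 3 and 4, 5 and 4 without mares 1, 2 and 4. They were 29 to 36, 11 to 19, 10 to 14, 21 to 29, 30 to 36, 11 to 17 and 25 to 32 in the comparisons of tissues and fluids, in the order of the thinned counts. For pred-miR-60 in UF the log2 change of -5.64 ranged from -6.949 to 0.1937 with a mare left out, and it reversed without mare 3. Of 662 repeats over 41 named calls, 614 stayed on the same side of the threshold, 47 were no longer called and this 1 reversed. DESeq2 results without an adjusted p were left out.

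Counting every entry raised the mean share of reads on predictions to 0.924%, 0.911%, 1.71%, 1.97%, 13.0% and 5.35% in pregnant and cyclic endometrium, pregnant and cyclic UF, embryo and YS fluid. Without the 3 profiles with most reads it was 0.169%, 0.141%, 0.240%, 0.458%, 2.38% and 2.06%, where the embryo value rests on embryo 1 with 8.44% against 0.732 to 1.04% in the others. Left-out libraries moved the mean share of all distinct profiles to 3.88 to 7.45% in embryos. The mean number of profiles with a read became 7.71, 6.40, 9.33, 10.3, 18.8 and 24.7 at 4254 reads, and 31.0, 20.3, 22.4, 25.3, 23.4 and 18.0 when 3 reads were asked for.

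Depth limits YS fluid and the embryos most, where 3 reads over the group stand for 56.8 and 17.9 CPM. On the scale of library totals, a profile without reads there can be as high as in endometrium unless its endometrial level exceeds that bound. The endometrial level did so for pred-miR-143 and pred-miR-5 against embryos. Most profiles have under 100 reads in all, and folds against few reads have wide intervals.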
